A study of Mus musculus with 12 samples.

Results

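The nuclear-encoded genes of the respiratory chain and ATP synthase were taken from the deposited table by symbol, without use of any measured value. The rule took protein-coding rows whose symbols start with Nduf followed by a, b, c, s or v, with Uqcr, with Cox followed by a digit from 4 to 8, or with Atp5, together with Sdha, Sdhb, Sdhc and Sdhd. It found 94 of 54532 rows, all among the 22046 protein-coding rows, under 93 symbols because Atp5o has 2 rows. Sorted by the enzyme they serve, 44 belong to complex I, 4 to complex II, 8 to complex III, 20 to complex IV and 18 to complex V. The rule also takes the Ndufaf assembly factors, which help to build complex I and are not part of the finished enzyme, and Ndufa4, which is now counted as a complex IV subunit despite its symbol.

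Complexes I and II pass electrons from NADH and succinate to ubiquinone, complex III hands them to cytochrome c and complex IV to oxygen. Complexes I, III and IV pump protons across the inner mitochondrial membrane, and complex V, the ATP synthase, uses the return of these protons to make ATP. Complex II is encoded wholly in the nucleus, while the other 4 enzymes also carry subunits encoded in mitochondrial DNA. Hepatocytes are rich in mitochondria and draw on this chain for gluconeogenesis, urea synthesis and the growth that follows resection.

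The libraries were made from polyadenylated RNA of whole liver from wild-type C57/BL6J mice, with 3 libraries in each of 4 groups. The groups are a sham operation and 3, 6 and 12 h after a 70% hepatectomy, an operation after which the remaining lobes regrow. The labels used here give neither age nor sex nor the hour at which sham livers were taken. Replicate 3 of the 6 h group has 6 h in its title and 7 in its time tag, and was grouped by title. Nothing in the labels says that each library is a different mouse, so the p-values may reflect technical spread only.

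Of the 94 rows, 86 reached 1 FPKM in 3 or more of the 12 libraries and were tested. FPKM are fragments scaled to gene length and to an effective library size, here 0.855 to 1.15 times the total counts of a library. Among these 86, 17 averaged 100 FPKM or more, 57 lay between 10 and 100 FPKM and 12 lay below 10 FPKM. Per length, the most abundant were Cox6a1 with a mean of 310.8 FPKM over all libraries, Atp5a1 with 273 FPKM, Cox8a with 252 FPKM and Atp5b with 212 FPKM. Atp5a1 and Atp5b encode the alpha and the catalytic beta subunit of the F1 head of ATP synthase. The 8 rows below the filter were Cox4i2, Cox6a2, Cox6b2, Cox7b2, Cox8b, Cox8c, Ndufa4l2 and the second Atp5o row. Of these, Cox7b2, Cox8c and the second Atp5o row had 0 counts in every library.

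A pair of libraries stood apart in these genes before any comparison was made. Sham replicate 1 correlated with the other sham libraries at 0.946 and 0.940 across the tested genes, against 0.988 between those other libraries, and it was the lowest sham library for 69 of the 86 members. Short messages were low in it: Atp5k, a small membrane subunit of ATP synthase, had 4.01, 58.0 and 68.1 FPKM in the 3 sham libraries, and Atp5e, the F1 epsilon subunit, had 15.5, 61.4 and 65.8 FPKM. Among the members with under 500 coding bases 46 of 49 were lowest in sham replicate 1 of the sham libraries, and among those with 500 or more 23 of 37. The median of the short members lay 0.51 below their mean over the 12 libraries on the log2(FPKM + 1) scale in sham replicate 1, against 0.31 below for all 912 tested genes of that length. At 3 h, replicate 2 was the lowest of its group for 84 of 86 members. Library totals lay between 15573405 and 17199639 counts, so total depth was alike in all 12 libraries.

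**Figure D1:**
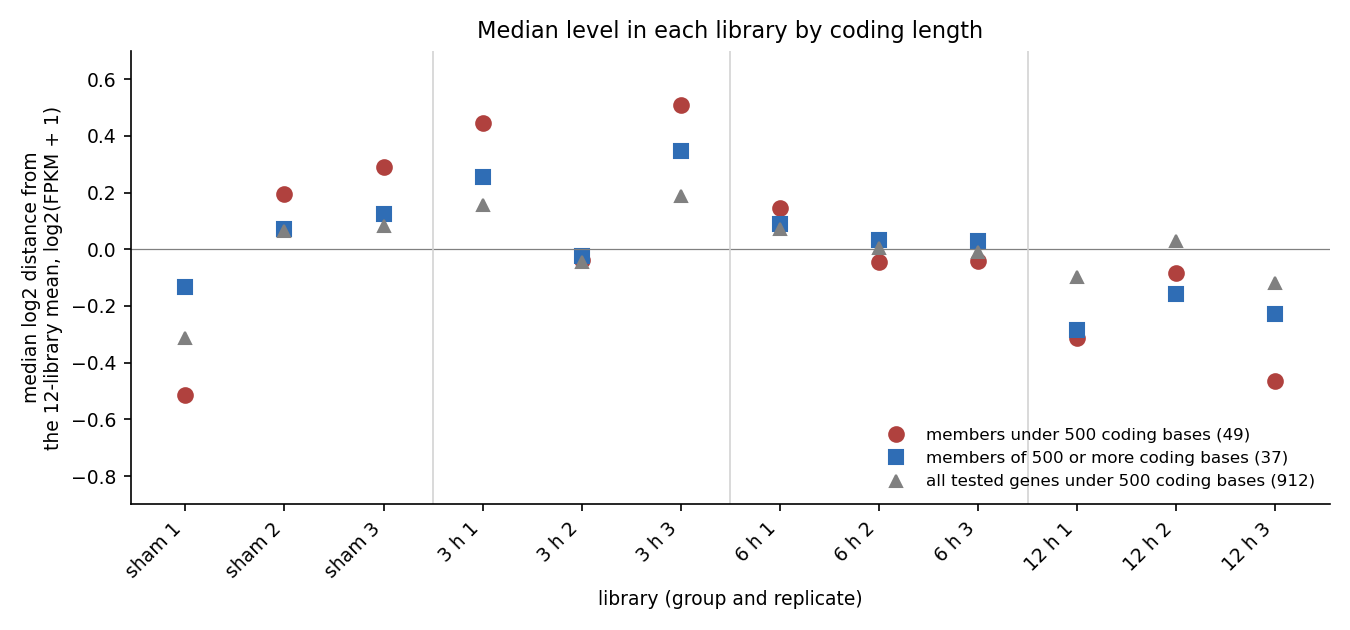
Median distance of the members from their own 12-library mean, on the log2(FPKM + 1) scale (vertical axis), in each library (horizontal axis). Circles stand for the 49 members under 500 coding bases, squares for the 37 longer members and triangles for all 912 tested genes under 500 coding bases; sham replicate 1 is the lowest point of the circles, at -0.51.

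To show the regulatory sequence of a few members, promoter windows were read from RefSeq (GRCm38.p6) as the 200 bases before a start site, on the strand of the gene. Of the members shown, Cox6a1 and Atp5g2 were called lower at 12 h, Ndufaf4 was called higher, and Sdha, with several matches, was not called. Capitals mark every base of a match to GCGCANGCG, the letters bound by nuclear respiratory factor 1, on either strand, so that overlapping matches give a longer run. Every printed window holds a match, so these windows are not typical. Matches stood in 22 of 71 members searched, and in 4 of 13 searched members called lower at 12 h.
Cox6a1: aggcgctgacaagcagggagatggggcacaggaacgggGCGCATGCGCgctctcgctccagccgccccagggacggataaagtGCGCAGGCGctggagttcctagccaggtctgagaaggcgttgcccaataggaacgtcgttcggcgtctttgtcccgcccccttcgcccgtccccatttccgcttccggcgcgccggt
Atp5g2: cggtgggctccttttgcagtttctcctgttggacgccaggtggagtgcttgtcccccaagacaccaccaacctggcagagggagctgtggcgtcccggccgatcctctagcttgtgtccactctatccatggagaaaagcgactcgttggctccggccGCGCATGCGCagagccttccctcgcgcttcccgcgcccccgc
Ndufaf4: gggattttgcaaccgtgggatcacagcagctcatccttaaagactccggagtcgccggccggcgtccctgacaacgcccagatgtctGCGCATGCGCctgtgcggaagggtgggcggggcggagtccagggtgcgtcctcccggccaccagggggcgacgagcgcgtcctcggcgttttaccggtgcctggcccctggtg
Sdha: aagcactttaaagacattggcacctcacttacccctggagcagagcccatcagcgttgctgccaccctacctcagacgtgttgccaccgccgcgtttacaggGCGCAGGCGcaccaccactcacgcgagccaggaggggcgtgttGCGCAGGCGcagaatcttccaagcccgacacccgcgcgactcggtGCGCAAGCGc
The windows are chr5:115348959-115349158 (minus strand) for Cox6a1, chr15:102671048-102671247 (minus) for Atp5g2, chr4:24897883-24898082 (plus) for Ndufaf4 and chr13:74350241-74350440 (minus) for Sdha. The RefSeq start sites of Cox6a1, Atp5g2 and Sdha lie inside the deposited gene spans, so the whole Atp5g2 window and part of the Cox6a1 and Sdha windows are annotated as gene in the deposited table.

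Motif searches used the whole RefSeq windows of 300 bases, 250 before to 50 after a start site, which were matched by symbol for 71 of the 86 tested members. The letters GCGCANGCG stood in the windows of 22 of the 71 members (31.0%), against 16.0% of 8126 tested genes and 7.03% of all 27025 genes that have such a RefSeq window. By enzyme they stood in 10 of 39 complex I members, 2 of 3 in complex II, 2 of 5 in complex III, 1 of 11 in complex IV and 7 of 13 in complex V. The letters AAGATGGCG, known from Yin Yang 1 sites, stood in 11.3% of members and 3.98% of tested genes. CCGGAAGT, known from ETS factors, stood in 7.04% of members and 9.94% of tested genes, and TCAAGGTCA, known from estrogen-related receptors, in 2.82% of members and 0.357% of tested genes. Of the 13 matched members called lower at 12 h, 4 held GCGCANGCG (30.8%). All searches covered both strands, and a match describes letters, not a bound site.

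At 12 h after resection the summed FPKM of each of the 5 enzymes had its lowest group mean. The FPKM of all 94 members summed to 3876, 5922 and 6277 in sham livers, 7205, 5312 and 7335 at 3 h, 5934, 5351 and 5282 at 6 h, and 4154, 4707 and 4001 at 12 h. All 3 libraries at 12 h lay below all 6 h and 3 h libraries and below sham replicates 2 and 3, and above sham replicate 1. Of the 86 tested members, 66 had their lowest group mean of FPKM at 12 h and 72 their highest at 3 h. The same was not counted over all tested genes, so these counts cannot show a pattern particular to the members. The members held 0.793%, 1.14% and 1.19% of all counts in sham livers, 1.18%, 0.897% and 1.12% at 3 h, 0.930%, 0.844% and 0.797% at 6 h, and 0.843%, 0.910% and 0.789% at 12 h. By this share, which scales each library by its total counts alone, the 12 h and 6 h libraries overlapped. By enzyme, the mean share was lowest at 6 h for complex I (0.196% at 12 h and 0.195% at 6 h) and for complex II (0.0742% at 12 h and 0.0702% at 6 h), and lowest at 12 h for complexes III, IV and V. The FPKM of all genes also summed to different totals, which lay between 385634 and 404144 in sham livers, between 447114 and 487012 at 3 h, between 487082 and 520216 at 6 h, and between 383180 and 396787 at 12 h. In whole liver, fewer cells of a type and less RNA per cell cannot be told apart. A test for any difference among the 4 groups (edgeR quasi-likelihood F-test, Benjamini-Hochberg adjusted p under 0.05 over 11451 genes) called 25 members, 29.1% of those tested, where 50.0% of all tested genes were called.

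**Figure D2:**
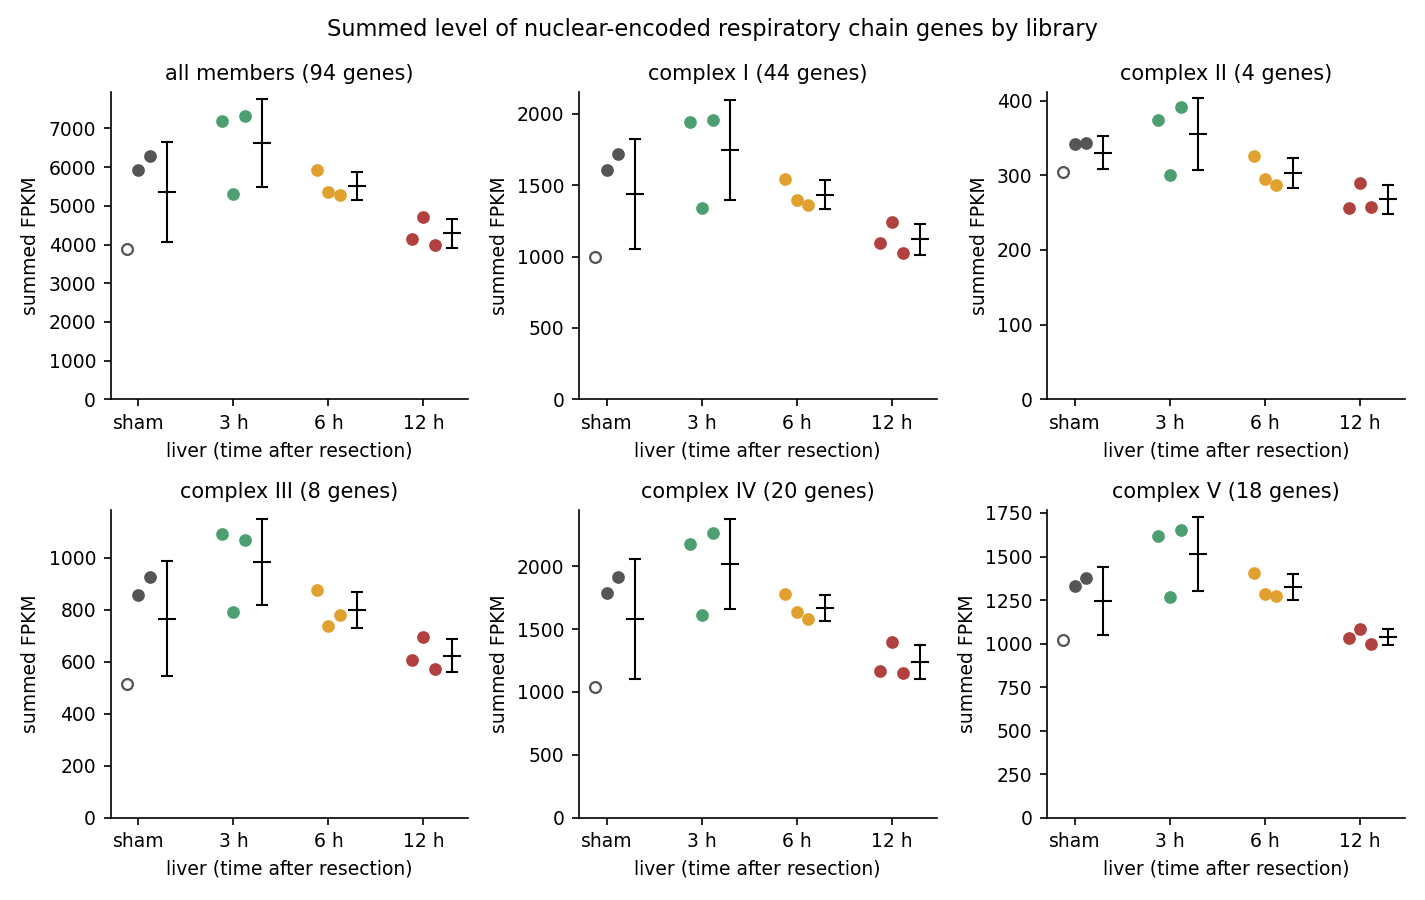
Summed FPKM of all members and of each enzyme (vertical axes, starting at 0) in sham livers and 3, 6 and 12 h after resection (horizontal axes). Points are libraries, with sham replicate 1 open, and bars give the mean and SD of 3 libraries; the 12 h sums of all members lie between 4001 and 4707.

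Whether 12 h livers differed from sham livers was tested on the counts by quasi-likelihood in edgeR. The members had a median log2 difference of -0.34, with 73 of 86 negative, while the median over all tested genes was -0.02. The members' median was -0.46 without sham replicate 1 and -0.20 without sham replicate 3. Lower at 12 h were 15 members, 17.4% of those tested, where 15.3% of all genes were called lower, and 1 member was higher, where 13.5% of all genes were called higher. This count of lower members is near the background, and it moved with single libraries: it was 49 without sham replicate 1, 2 without sham replicate 2, 4 without sham replicate 3, 3 without 12 h replicate 1, 12 without 12 h replicate 2 and 2 without 12 h replicate 3. Without sham replicate 1, the 49 lower members were 57.0% of those tested, and 23.3% of all genes were called lower. In the other leave-outs 9.88% to 12.1% of all genes were. The FPKM of the 12 h and sham groups did not overlap, with 12 h lower, for 16 members or 18.6%, where 18.9% of all genes did so.

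**Figure D3:**
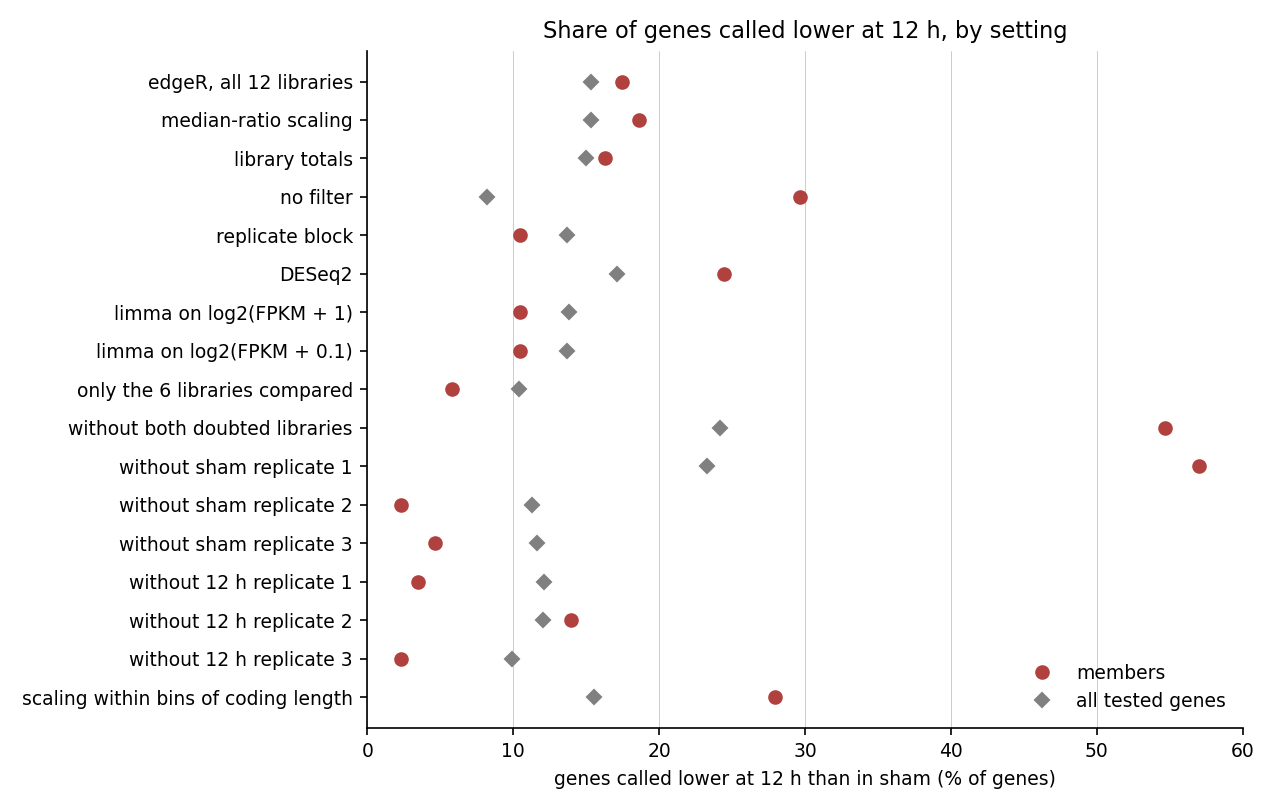
Share of genes called lower at 12 h than in sham livers (horizontal axis, percent) under each setting (vertical axis), for the members (circles) and for all tested genes (diamonds). The circles run from 2 lower members without sham replicate 2 or 12 h replicate 3 to 49 without sham replicate 1, on either side of the diamonds.

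Coding length was looked at because of the short messages in sham replicate 1. The 37 members with 500 or more coding bases had a median log2 difference of -0.29 at 12 h against sham, where the 8942 tested genes of that length had a median of -0.01, and 8 of the 37 were called lower. The 49 shorter members had a median of -0.38, where 912 genes of that length had a median of -0.04, and 7 of the 49 were called lower. Both counts stand beside 15.3% of all tested genes called lower, and the share among genes of each length was not counted. When library scaling was set within bins of coding length, a choice made after seeing the data, 24 members were called lower, 14 of them among the 15, where 15.5% of all genes were lower. Markers of hepatocytes moved with the members: 3 of 5 were called lower at 12 h, and their summed FPKM lay between 21646 and 23336 at 12 h and between 34743 and 36639 in sham livers. Markers of red cells also did so, with 4 of 5 called lower and sums of 47.9 to 69.2 FPKM at 12 h and 93.0 to 119 FPKM in sham livers. Neutrophil markers ran the other way, with 2 of 4 tested called higher and sums of 6.49 to 7.93 FPKM at 12 h and 1.58 to 2.16 FPKM in sham livers, and 1 of their 7 genes was at 0 in every library. Macrophage markers summed to 31.3 to 39.3 FPKM at 12 h and 40.3 to 55.0 FPKM in sham livers, with 2 of 7 called lower and 2 higher. Lymphocyte markers, none of them above the filter, summed to 0.555 to 0.916 FPKM at 12 h and 1.39 to 1.64 FPKM in sham livers. Sums of endothelial, stellate, bile duct and muscle markers overlapped between the groups. The part of these cell types in the result was not tested.

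**Figure D4:**
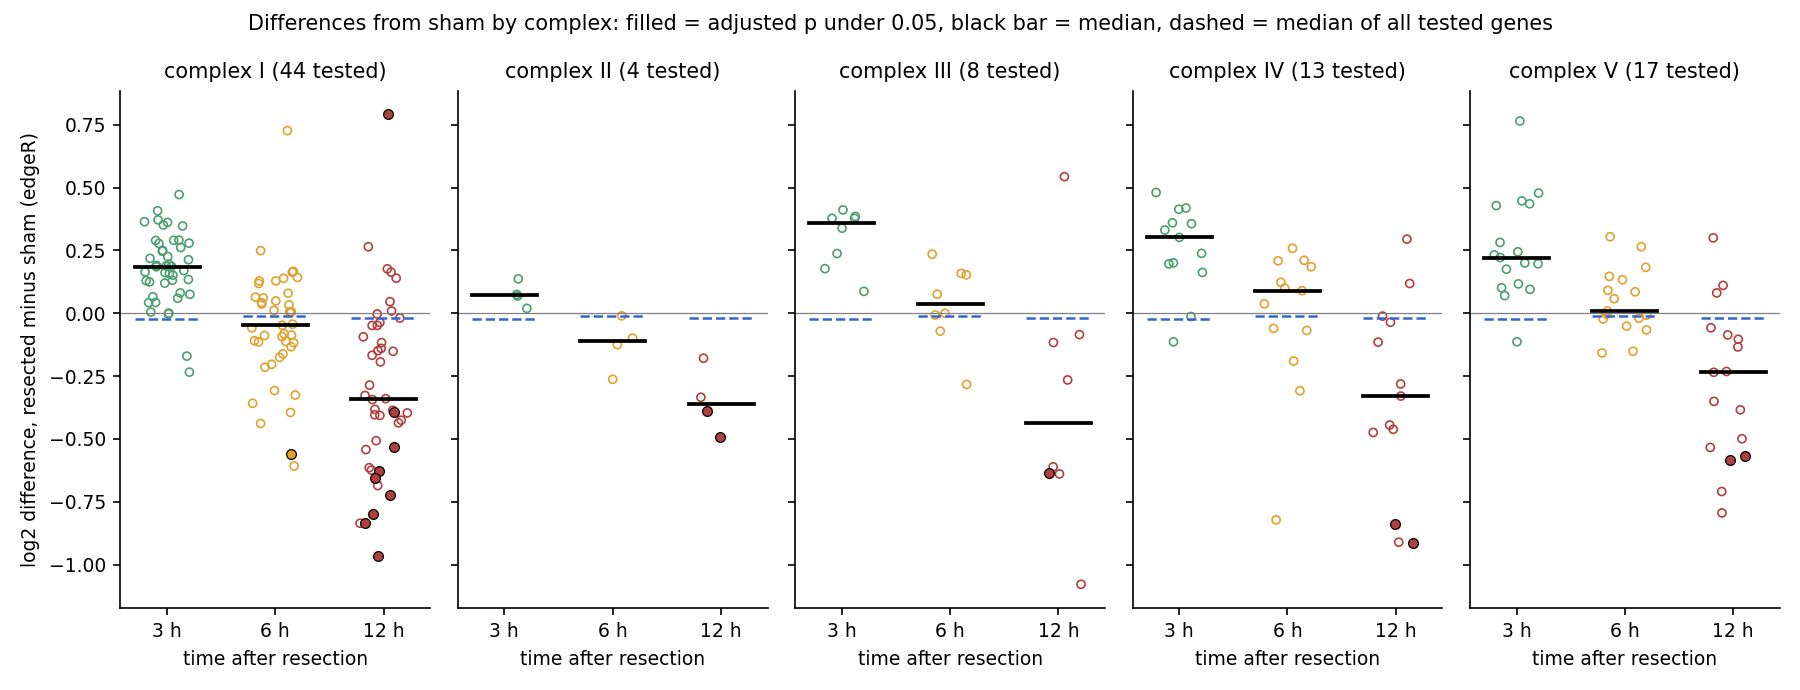
Log2 difference of each tested member from sham (vertical axis, resected minus sham) at 3, 6 and 12 h (horizontal axis), by enzyme. Filled points have an adjusted p under 0.05, black bars are medians of the enzyme's members and dashed bars medians of all tested genes; at 12 h the medians run from -0.44 in complex III to -0.23 in complex V.

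Complex I takes electrons from NADH through a chain of iron-sulfur clusters held by its core subunits. At 12 h against sham, 8 of its 44 members were called lower and 1 higher, where 15.3% and 13.5% of all genes were. The median log2 difference of the 44 members was -0.34. Their summed FPKM averaged 1440 ± 386 in sham livers, 1745 ± 352 at 3 h, 1434 ± 99.0 at 6 h and 1121 ± 110 at 12 h (SD, n = 3 each). Without sham replicate 1 the lower members were 25, where 23.3% of all genes were called lower. Of the 7 nuclear-encoded core subunits, Ndufs7 and Ndufs8 fell. Ndufs8 (chr19:3908870-3912717 on GRCm38, as all gene positions here, minus strand), an iron-sulfur core subunit, had 40.6, 41.9 and 41.6 FPKM at 12 h and 50.9, 72.9 and 70.4 FPKM in sham livers. Every 12 h library lay below every sham library, and the 12 h libraries were close to each other. The log2 difference was -0.66 ± 0.16 (SE, adjusted p = 0.0081), and the call held when any of the 6 libraries was left out (highest adjusted p 0.039). Ndufs7 (chr10:80249121-80256794, plus strand), which holds the iron-sulfur cluster next to the ubiquinone site, had 21.8, 21.7 and 16.5 FPKM at 12 h and 23.0, 38.4 and 42.1 FPKM in sham livers. The groups did not overlap, but sham replicate 1 lay just above the highest 12 h library. Its log2 difference was -0.80 ± 0.23 (adjusted p = 0.020), and the call was lost without sham replicate 2, sham replicate 3 or 12 h replicate 3 (highest adjusted p 0.094).

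The other core subunits of complex I did not pass the test at 12 h. Ndufs1, the largest iron-sulfur subunit, averaged 12.0 ± 0.188 FPKM at 12 h and 12.3 ± 1.95 FPKM in sham livers (SD, n = 3 each), with a log2 difference of -0.05 ± 0.13 (SE). Ndufv1, which binds NADH, averaged 35.0 ± 2.04 FPKM at 12 h and 45.9 ± 11.1 FPKM in sham livers, with a log2 difference of -0.40 ± 0.19 (adjusted p = 0.13). Ndufv2, its iron-sulfur partner in the NADH module, had 45.2, 47.8 and 51.7 FPKM at 12 h and 44.2, 42.5 and 40.3 FPKM in sham livers. Its 12 h libraries lay above all sham libraries, unlike those of the other core subunits, with a log2 difference of 0.18 ± 0.12 (adjusted p = 0.31).

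Of the 29 accessory subunits of complex I, 5 fell at 12 h: Ndufa6, Ndufa7, Ndufa9, Ndufa13 and Ndufv3. Ndufv3 had 7.37, 11.0 and 7.60 FPKM at 12 h and 7.75, 19.0 and 23.6 FPKM in sham livers. Sham replicate 1 lay within the 12 h range, so the groups overlapped. Its log2 difference of -0.97 ± 0.33 (adjusted p = 0.042) was the largest fall among the called members, and the call was lost without sham replicate 2, sham replicate 3, 12 h replicate 1 or 12 h replicate 3 (highest adjusted p 0.197). Ndufa6 had 32.7, 39.4 and 30.6 FPKM at 12 h and 37.2, 71.2 and 73.0 FPKM in sham livers, again with overlap through sham replicate 1. Its log2 difference was -0.83 ± 0.23 (adjusted p = 0.016), lost without the same 4 libraries (highest adjusted p 0.072). Ndufa9 had 33.1, 33.9 and 30.5 FPKM at 12 h and 38.6, 43.9 and 44.5 FPKM in sham livers, with no overlap and a log2 difference of -0.39 ± 0.12 (adjusted p = 0.024). That call too was lost without any of these 4 libraries (highest adjusted p 0.105).

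The assembly factors of complex I differed among themselves. Ndufaf4 (chr4:24898083-24905001, plus strand), whose promoter window is printed above, was the only member called higher at 12 h in the fit to all libraries. It had 13.9, 14.4 and 17.3 FPKM at 12 h and 12.4, 7.10 and 6.61 FPKM in sham livers. All 12 h libraries lay above all sham libraries, and sham replicate 1 lay nearest to them. The log2 difference was 0.79 ± 0.21 (adjusted p = 0.012), a fold of 1.73. The call was lost without sham replicate 2 or 12 h replicate 3 (highest adjusted p 0.054), and the difference was 1.13 ± 0.14 without sham replicate 1 (adjusted p = 4.7e-05). Against 6 h, where it had 9.88, 9.08 and 10.3 FPKM, the log2 difference was 0.65 ± 0.21 (adjusted p = 0.034), and that call was lost when any of the 6 libraries was left out (adjusted p between 0.054 and 0.121).

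Ndufaf6 (chr4:11051045-11076205, minus strand), another assembly factor, fell earlier. It had 8.96, 9.14 and 8.46 FPKM in sham livers, 9.74, 9.44 and 10.8 FPKM at 3 h, 6.71, 5.89 and 5.78 FPKM at 6 h and 5.17, 6.92 and 6.44 FPKM at 12 h. All 6 h and 12 h libraries lay below all sham and 3 h libraries, and sham replicate 1 was not apart here. At 6 h it was the only member called against sham, with a log2 difference of -0.56 ± 0.16 (adjusted p = 0.016), and at 12 h the difference was -0.53 ± 0.16 (adjusted p = 0.025). The 6 h call was lost without sham replicate 2, 6 h replicate 2 or 6 h replicate 3 (highest adjusted p 0.055), and the 12 h call without sham replicate 2, 12 h replicate 1 or 12 h replicate 3 (highest adjusted p 0.099). The other 6 assembly factors had log2 differences between -0.41 and 0.01 at 12 h, and none of them was called.

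Complex II oxidises succinate and is also the enzyme that links the chain to the TCA cycle. At 12 h, 2 of its 4 subunits fell, where 15.3% of all genes were called lower. The median log2 difference of the 4 subunits was -0.36. Their summed FPKM averaged 330.2 ± 21.8 in sham livers, 356 ± 48.3 at 3 h, 303 ± 19.97 at 6 h and 268 ± 19.0 at 12 h (SD, n = 3 each). The sham replicates were the closest of the 5 enzymes. Without sham replicate 1 the lower members were 3, where 23.3% of all genes were called lower. Sdhb (chr4:140961203-140979193, plus strand), the iron-sulfur subunit, had 47.5, 54.6 and 48.6 FPKM at 12 h and 66.2, 73.1 and 71.3 FPKM in sham livers. The groups did not overlap and the sham libraries were close to each other, sham replicate 1 included. The log2 difference was -0.49 ± 0.13 (adjusted p = 0.015), lost without sham replicate 2, 12 h replicate 1 or 12 h replicate 3 (highest adjusted p 0.062). Sdhc, a membrane anchor, averaged 30.8 ± 2.96 FPKM at 12 h and 40.0 ± 3.73 FPKM in sham livers (SD, n = 3 each), with an adjusted p of 0.0491 that reached 0.168 when a library was left out (the call was lost without sham replicate 2 or 3 or 12 h replicate 1 or 3). Sdha, the flavin-bearing catalytic subunit whose window is printed above, had 75.3, 81.5 and 81.1 FPKM at 12 h and 103, 96.9 and 97.6 FPKM in sham livers. Its groups did not overlap either, but the log2 difference of -0.33 ± 0.12 just missed the threshold (adjusted p = 0.054), and it was called without sham replicate 1 (adjusted p = 0.048).

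Complex III passes electrons from ubiquinol to cytochrome c. At 12 h, 1 of its 8 members fell, where 15.3% of all genes were called lower. The median log2 difference of complex III, -0.44, was the most negative of the 5 enzymes. The sums averaged 766 ± 220.1 FPKM in sham livers, 983 ± 166 FPKM at 3 h, 798 ± 69.4 FPKM at 6 h and 624 ± 63.0 FPKM at 12 h (SD, n = 3 each). Without sham replicate 1 the lower members were 5, where 23.3% of all genes were called lower. Uqcrc1 (chr9:108936633-108949623, plus strand), a core protein, had 33.3, 33.6 and 33.7 FPKM at 12 h and 40.3, 56.9 and 57.9 FPKM in sham livers. The 12 h libraries were nearly equal and lay below every sham library. The log2 difference was -0.64 ± 0.15 (adjusted p = 0.0075), and the call held with any of the 6 libraries left out (highest adjusted p 0.036). Its partner Uqcrc2 averaged 64.0 ± 1.30 FPKM at 12 h and 68.9 ± 7.46 FPKM in sham livers (SD, n = 3 each), with a log2 difference of -0.12 ± 0.12 (SE, adjusted p = 0.51). Uqcrfs1, the Rieske iron-sulfur protein, averaged 122 ± 6.39 FPKM at 12 h and 128 ± 26.8 FPKM in sham livers, with a difference of -0.08 ± 0.16 (adjusted p = 0.74). Among the small accessory subunits, Uqcr11 had the most negative difference of all members, -1.08 ± 0.41 (adjusted p = 0.065). It had 48.0, 77.7 and 42.0 FPKM at 12 h and 39.9, 146 and 165 FPKM in sham livers, so sham replicate 1 lay below all 12 h libraries. Uqcrb stood on the other side, with 122, 145 and 125 FPKM at 12 h and 87.9, 81.1 and 97.6 FPKM in sham livers. Its groups did not overlap, but the difference of 0.54 ± 0.25 did not pass the test (adjusted p = 0.12).

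Complex IV reduces oxygen to water, and several of its nuclear-encoded subunits exist in tissue forms. At 12 h, 2 of its 13 tested members fell, both of them liver forms, where 15.3% of all genes were called lower. Summed over the 20 members, complex IV averaged 1579 ± 474 FPKM in sham livers, 2018 ± 356 FPKM at 3 h, 1665 ± 103 FPKM at 6 h and 1237 ± 137 FPKM at 12 h (SD, n = 3 each). Without sham replicate 1 the lower members were 8, where 23.3% of all genes were called lower. Cox6a1 (chr5:115345642-115348981, minus strand), the liver form of subunit 6a, had 154, 390 and 404 FPKM in sham livers, 438, 364 and 452 FPKM at 3 h, 351, 349 and 294 FPKM at 6 h and 186, 192 and 157 FPKM at 12 h. The 12 h libraries lay far below all others except sham replicate 1, which was the lowest of all 12. Against sham the log2 difference at 12 h was -0.84 ± 0.27 (adjusted p = 0.035). That call was kept without sham replicate 1, with a difference of -1.17 ± 0.14 (adjusted p = 4.1e-05), and lost without any of the other 5 libraries (highest adjusted p 0.149). Cox8a (chr19:7215158-7217616, minus strand), the liver form of subunit 8, had 131, 184 and 129 FPKM at 12 h and 180, 310 and 341 FPKM in sham livers. The highest 12 h library lay just above sham replicate 1. Its difference was -0.91 ± 0.25 (adjusted p = 0.014), lost without sham replicates 2 or 3 or 12 h replicates 1 or 3 (highest adjusted p 0.067).

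**Figure D5:**
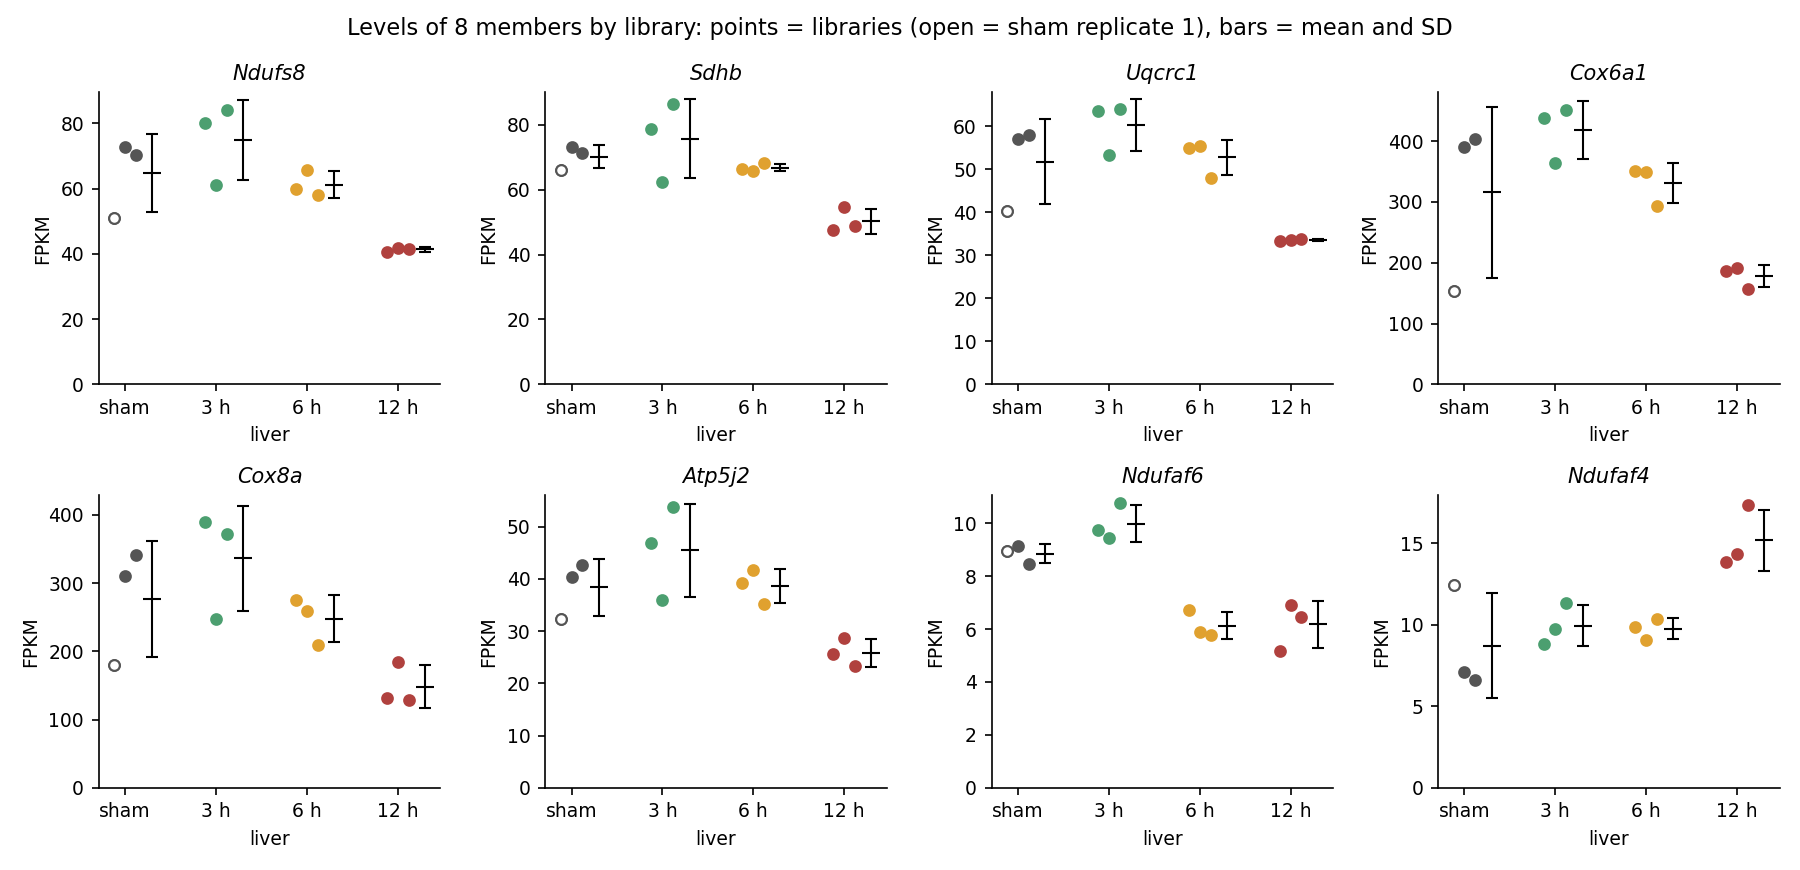
FPKM (vertical axes, starting at 0) of 8 members in sham livers and 3, 6 and 12 h after resection (horizontal axes). Points are libraries, with sham replicate 1 open, and bars give the mean and SD of 3 libraries; Uqcrc1 is at 33.3 to 33.7 FPKM at 12 h, Ndufaf6 is lower at both 6 h and 12 h, and Ndufaf4 is higher at 12 h.

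Other complex IV members did not pass the test at 12 h. Cox4i1, the common form of subunit 4, averaged 121 ± 8.32 FPKM at 12 h and 166 ± 50.6 FPKM in sham livers (SD, n = 3 each), with a log2 difference of -0.47 ± 0.21 (SE, adjusted p = 0.10). Cox5a averaged 28.4 ± 3.66 FPKM at 12 h and 38.8 ± 11.7 FPKM in sham livers, with a difference of -0.46 ± 0.20 (adjusted p = 0.11). Cox7a2l, which joins complexes III and IV, averaged 47.5 ± 4.98 FPKM at 12 h and 57.3 ± 6.62 FPKM in sham livers, with a difference of -0.28 ± 0.14 (adjusted p = 0.16). Ndufa4 had 174, 221 and 191 FPKM at 12 h and 151, 154 and 168 FPKM in sham livers. All 12 h libraries of Ndufa4 lay above all sham libraries, with a difference of 0.30 ± 0.14 (adjusted p = 0.14). Cox6b1, the common form of subunit 6b, had a difference of -0.11 ± 0.28, and Cox7a2, the liver form of subunit 7a, -0.04 ± 0.18.

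The alternative forms of complex IV subunits were at or near 0 in nearly every library. Cox4i1 held 99.8% or more of the summed FPKM of the Cox4i forms in every library, and Cox6b1 99.7% or more of that of the Cox6b forms. Cox6a1 held at least 98.7% and Cox8a at least 99.2% of their forms, and in both cases the lowest share came from sham replicate 3. In that library Cox6a2, the heart and muscle form, had 68 counts against 0 to 2 elsewhere, and Cox8b had 19 counts against 0 to 4 elsewhere. The 7 skeletal and heart muscle markers summed to 77.4 FPKM in the same library and to at most 1.10 FPKM in any other, and the part of muscle RNA in these counts was not tested. Cox7a1, the muscle form of subunit 7a, had 0 to 19 counts in a library, and Cox7a2 held at least 98.3% of these forms. Ndufa4l2, a paralog of Ndufa4 known to respond to hypoxia, had 0.321 to 1.66 FPKM.

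Complex V couples the rotating c-ring in the membrane to the catalytic F1 head. At 12 h, 2 of the 17 tested members of complex V fell, where 15.3% of all genes were called lower. Both belong to the membrane part, which with the stalk makes up 11 of the tested members. The 12 h FPKM lay below all sham FPKM for 1 of these 11 and for 3 of 5 F1 members, where 18.9% of all genes did so. The median log2 difference of complex V, -0.23, was the least negative of the 5 enzymes. Summed over its 18 members it averaged 1243 ± 195 FPKM in sham livers, 1515 ± 213 FPKM at 3 h, 1323 ± 73.8 FPKM at 6 h and 1038 ± 45.7 FPKM at 12 h (SD, n = 3 each). Without sham replicate 1 the lower members were 8, where 23.3% of all genes were called lower. Atp5j2 (chr5:145183698-145192062, minus strand), membrane subunit f, had 25.5, 28.7 and 23.4 FPKM at 12 h and 32.3, 40.4 and 42.6 FPKM in sham livers. The groups did not overlap, and the log2 difference was -0.58 ± 0.17 (adjusted p = 0.018), lost without sham replicates 2 or 3 or 12 h replicates 1 or 3 (highest adjusted p 0.082). Atp5b, the catalytic beta subunit, had 185, 174 and 181 FPKM at 12 h and 215, 204 and 212 FPKM in sham livers. All its 12 h libraries lay below all sham libraries, but the difference of -0.23 ± 0.11 did not pass the test (adjusted p = 0.13).

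Atpif1, the inhibitor of ATP synthase, lies outside the symbol rule. It had 3.23, 3.02 and 4.33 FPKM in sham livers, 3.42, 2.74 and 3.33 FPKM at 3 h, 2.19, 2.12 and 2.71 FPKM at 6 h and 3.04, 3.23 and 3.26 FPKM at 12 h. Its 6 h libraries were the lowest of all 12, with a log2 difference against sham of -0.62 ± 0.22 (SE, adjusted p = 0.046), and the call was lost without sham replicate 3, 6 h replicate 1 or 6 h replicate 2 (highest adjusted p 0.194).

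The identical c subunits of the ring are encoded by 3 genes whose precursors differ in their import signals. Atp5g3 gave 54.6% to 67.2% of their summed FPKM in a library, Atp5g2 21.6% to 33.7% and Atp5g1 9.25% to 13.3%. Atp5g2, whose window is printed above, fell at 12 h, with 30.3, 31.1 and 26.4 FPKM at 12 h and 30.0, 49.3 and 49.8 FPKM in sham livers. Sham replicate 1 lay within the 12 h range. The difference was -0.57 ± 0.19 (adjusted p = 0.039), and the call was lost without any library of these groups other than sham replicate 1 (highest adjusted p 0.147). Atp5g1 had a difference of -0.35 ± 0.27 and Atp5g3 of -0.38 ± 0.29, neither past the test, and whether the 3 genes differed from each other was not tested.

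At 3 h, no member passed the edgeR test against sham, where 9.81% of all tested genes were called higher and 11.7% lower. At an unadjusted p under 0.05 there were 2 members higher and 0 lower, where 1723 of all 11451 tested genes were higher and 2122 lower. DESeq2 and limma on log2(FPKM + 1) each called 1 member higher and 0 lower after adjustment. Of all tested genes, DESeq2 called 1377 higher and 1518 lower, and limma 1222 higher and 1089 lower. The median log2 difference of the members was 0.20, with 80 of 86 positive, while the median of all tested genes was -0.02. The members' median was 0.06 without sham replicate 1, 0.32 without sham replicate 3 and 0.33 without 3 h replicate 2. It also moved with coding length: 0.28 over the short members, where genes of that length had a median of 0.16, and 0.13 over the longer ones, where genes of that length had a median of -0.04. With library totals in place of TMM scaling the median of all genes shifted to -0.20 and that of the members to 0.01. Marker sums lay higher at 3 h than in sham livers without overlap for hepatocytes (36957 to 44982 FPKM at 3 h and 34743 to 36639 FPKM in sham livers), red cells (149 to 176 FPKM at 3 h and 93.0 to 119 FPKM in sham livers), macrophages (56.3 to 73.7 FPKM at 3 h and 40.3 to 55.0 FPKM in sham livers), endothelial cells (32.1 to 40.7 FPKM at 3 h and 19.4 to 24.7 FPKM in sham livers), bile duct cells (4.68 to 8.95 FPKM at 3 h and 2.65 to 3.55 FPKM in sham livers) and neutrophils (12.9 to 13.9 FPKM at 3 h and 1.58 to 2.16 FPKM in sham livers). By edgeR, 1 of 5 hepatocyte, 2 of 5 red cell, 1 of 7 macrophage and 3 of 6 endothelial markers were called higher. So were 1 of 2 tested bile duct and 4 of 4 tested neutrophil markers, and none in these lists was lower. The FPKM of all genes also summed higher at 3 h than in sham livers, as given above. The part of these cell types and of the FPKM totals in the members' values was not tested.

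At 6 h against sham, 1 member was lower (Ndufaf6) and none was higher by edgeR, DESeq2 or limma, where 16.8% of all genes were called higher and 18.2% lower. At an unadjusted p under 0.05 there were 0 higher and 2 lower, where 21.5% of all genes were higher and 22.5% lower. The median difference of the members was -0.00 and that of all tested genes -0.01, and the members' median was -0.14 without sham replicate 1 and 0.11 without sham replicate 3. With library totals in place of TMM scaling both medians shifted to -0.32, and 8 members were lower, where 32.4% of all genes were. With TMM scaling the lower count was 7 without sham replicate 1, where 21.5% of all genes were lower. It was 0 without sham replicate 2, 6 h replicate 2 or 6 h replicate 3, where 14.9% to 15.8% of all genes were.

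Between 6 h and 3 h, Ndufaf6 was again the only member called, where 4.45% of all genes were called higher and 4.18% lower. Its log2 difference was -0.69 (adjusted p = 0.021), and the call was lost without 3 h replicates 1 or 3 or 6 h replicates 2 or 3 (highest adjusted p 0.080). No member was called higher by edgeR, DESeq2 or limma. At an unadjusted p under 0.05, 0 members were higher, where 12.0% of all genes were. The median difference of the members was -0.22, with 76 of 86 negative, and that of all genes was 0.01; with library totals these became -0.35 and -0.12. The members' median was -0.37 without 3 h replicate 2 and -0.15 without 3 h replicate 3.

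Between 12 h and 6 h, a comparison without the sham libraries, 10 members fell, 11.6% of those tested, where 12.6% of all genes were called lower. Ndufaf4 rose, where 12.1% of all genes were called higher. Among the lower members were Ndufa7, Ndufa9, Ndufa10 and Ndufs8 of complex I, Sdhb, Uqcrc1, Cox6a1, Cox8a and Atp5j2. The median difference of the members was -0.33, with 70 of 86 negative, and that of all genes was -0.04. The FPKM of all 3 libraries at 12 h lay below all 3 at 6 h for 46 members, 53.5%, where 25.8% of all tested genes did so. The deposited FPKM divide by an effective size that was 0.855 to 0.912 of the total counts at 6 h and 1.07 to 1.12 at 12 h. The higher FPKM totals at 6 h given above go with this divisor, and its part in these differences was not tested. Of the calls, only that of Uqcrc1 held with any of the 6 libraries left out. Uqcrc1 averaged 33.5 ± 0.209 FPKM at 12 h and 52.8 ± 4.12 FPKM at 6 h (SD, n = 3 each), with a log2 difference of -0.64 ± 0.15 (SE, adjusted p = 0.0087) and a highest adjusted p of 0.037 among these fits. The count of lower members was 2 without 6 h replicate 1, 2 without 6 h replicate 2, 8 without 6 h replicate 3, 2 without 12 h replicate 1, 4 without 12 h replicate 2 and 1 without 12 h replicate 3. With library totals in place of TMM scaling the median of all genes shifted to 0.26 and that of the members to -0.03, and 0 members were then lower and 3 higher, where 4.9% of all genes were lower and 27.3% higher.

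The subunits encoded in mitochondrial DNA did not follow the nuclear ones in level. Their 13 genes summed to 88451, 42311 and 37114 FPKM in sham livers, 47010, 51339 and 54379 FPKM at 3 h, 54048, 60811 and 78761 FPKM at 6 h, and 58494, 55023 and 60789 FPKM at 12 h. Sham replicate 1, the lowest sham library for the nuclear genes, was the highest of all 12 here. At 12 h against sham, edgeR, DESeq2 and limma called 0 of the 13, with 1 higher and 0 lower at an unadjusted p under 0.05, and the median log2 difference was 0.03. mt-Co3, a core subunit of complex IV, was called higher at 6 h against sham, but its 6 h libraries had 75.2, 579 and 136 FPKM and its sham libraries 97.3, 64.5 and 51.0 FPKM, so the groups overlapped and 6 h replicate 2 stood apart.

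Genes that work beside the chain were counted from lists chosen with earlier results of these data known. At 12 h against sham, 3 of 10 tested electron carriers and alternative inputs fell and 1 rose, with a median log2 difference of -0.30. Prodh, proline dehydrogenase, averaged 8.55 FPKM at 12 h and 24.4 FPKM in sham livers, with a log2 difference of -1.52, and Cyc1, cytochrome c1 of complex III, had a difference of -0.57. Cycs, cytochrome c itself, rose to 48.6 FPKM at 12 h, against 21.4 FPKM in sham livers, with a difference of 1.17. Of 41 tested assembly factors outside the symbol rule, 4 fell and 6 rose, with a median of 0.00. Higd2a, known as an assembly factor of complex IV and supercomplexes, had a difference of -1.16 and Uqcc3, an assembly factor of complex III, -1.04. Sham replicate 1 lay within the 12 h range for both, with 27.2, 25.8 and 16.7 FPKM of Higd2a at 12 h and 22.5, 62.3 and 69.5 FPKM in sham livers, and with 7.96, 11.3 and 5.88 FPKM of Uqcc3 at 12 h and 10.6, 18.9 and 21.6 FPKM in sham livers.

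Of 21 TCA cycle enzymes and their regulators, 5 fell and 3 rose at 12 h, with a median of 0.01. Fh1, fumarate hydratase, which acts next after complex II, averaged 48.1 FPKM in sham livers, 133 FPKM at 3 h, 199 FPKM at 6 h and 138 FPKM at 12 h, and its log2 difference at 12 h was 1.51. Of 32 tested genes for mitochondrial protein import and quality control, 4 fell and 1 rose. Clpx, the unfoldase of a mitochondrial protease, averaged 65.3 FPKM in sham livers, 126 FPKM at 3 h, 131 FPKM at 6 h and 18.1 FPKM at 12 h, with a difference of -1.86 at 12 h. Of 77 mitochondrial ribosomal proteins, 4 fell and 7 rose, with a median of -0.01. Of 23 tested regulators of mitochondrial gene expression, 4 fell and 3 rose, and Pprc1, a coactivator related to PGC-1, had a difference of 1.68 at 6 h. These counts compare with 15.3% of all tested genes called lower and 13.5% called higher at 12 h.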

How the data were processed

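Gene counts and FPKM in 12 libraries were used as deposited by the authors, in the columns of each library per the file headers. The submitters' processing notes name CASAVA 1.8, fastp, HISAT2 2.0.5, featureCounts 1.5.0-p3, DESeq2 1.20.0 and GRCm38/mm10, with no role or order, and whether counting used strand is not given in the sources used here. Of 54532 genes, the 11451 that reached 1 FPKM in at least 3 libraries were tested on the counts with edgeR 4.0.16 (R 4.3.3), by TMM scaling and 1 quasi-likelihood model of the 4 groups, two-sided, with Benjamini-Hochberg adjustment over all tested genes and a call at an adjusted p under 0.05. Library totals ran between 15573405 and 17199639 counts, and the fitted biological variation between libraries was 20.6%. FPKM are shown as levels only. Alternatives used DESeq2 1.42.0, limma 3.58.1 on log2(FPKM + 1) or log2(FPKM + 0.1), other scalings, no filter, a replicate block and left-out libraries. All 12 libraries entered the model reported. Coding lengths came from GENCODE M21 and promoters from RefSeq (GRCm38.p6). The model and the limma fit were tested on simulated data.

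The members and lists were chosen with earlier results of these data known. The text names up to 5 called members in each direction by size in each comparison, fixed members of each enzyme, alternative forms and up to 4 called genes of each related list. Atp5e, Atp5k, Atp5a1, mt-Co3, Ndufa9, Ndufa10, Ndufa13, Atp5j2, Ndufa7, Ndufaf6 and Uqcrc1 at 12 h against sham, Ndufs8, Ndufv2, Sdhc, Uqcr11, Uqcrb and Pprc1 were named after their values were seen.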

Additional observations from a re-analysis of the deposited data

How the results depend on the processing

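Over 446 results and 7125 alternative values, 6667 kept their side of the threshold or, for counts and medians, stayed close to the reported value. A further 177 lost a call, 217 gained one, 64 other values moved and 0 reversed direction with a call in either fit. Differences called in neither fit were counted as kept even where their sign changed. Most results were of this kind, so the total kept does not show how well the calls held. With 1 library left out, 2 to 15 of the 15 lower calls at 12 h against sham were kept. Between 12 h and 6 h, 1 to 7 of the 10 lower calls were. Where no reason is stated, the cause was not tested. Without the FPKM filter, which tests more genes, the members called were 4 higher and 1 lower at 3 h against sham, 1 and 2 at 6 h, 2 and 27 at 12 h, 5 lower between 6 h and 3 h, 21 lower between 12 h and 6 h, and 46 among the 4 groups. These are counts over 91 members, beside 8.18% of 27369 genes lower at 12 h against sham and 6.96% between 12 h and 6 h. For the test among the 4 groups, the share of all genes in this fit was not counted. Against sham, 5.63% of these genes were higher and 5.84% lower at 3 h, and 7.94% and 9.1% at 6 h. At 12 h 6.57% were higher, and between 6 h and 3 h 3.23% were lower. With library totals, 8 were lower at 6 h against sham, and 3 higher and 0 lower between 12 h and 6 h. DESeq2 called 1 higher at 3 h against sham and 17 lower between 12 h and 6 h, where 12.0% and 14.5% of all genes were. With limma on log2(FPKM + 1), 1 was higher at 3 h and 9 lower at 12 h against sham. The shares of all genes were 10.7% and 13.8%. With log2(FPKM + 0.1), 9 were lower at 12 h against sham and 0 higher between 12 h and 6 h. These stand beside 13.7% and 11.2% of all genes. With only the 6 libraries compared, 5 were lower at 12 h against sham, 2 lower between 6 h and 3 h and 28 lower between 12 h and 6 h. The shares of all genes lower were 10.4%, 6.78% and 15.5%. Without both sham replicate 1 and 6 h replicate 3, whose time tag differs from its title, 1 was higher at 3 h, 1 higher and 3 lower at 6 h and 47 lower at 12 h against sham, and 34 lower between 12 h and 6 h. Of all genes, 11.9% were higher at 3 h, 19.1% higher and 18.9% lower at 6 h and 24.2% lower at 12 h. Between 12 h and 6 h 19.0% were lower. Scaling within bins of coding length, chosen after seeing the data, gave 4 lower at 6 h and 0 higher and 24 lower at 12 h against sham, and 0 higher and 17 lower between 12 h and 6 h. Of all genes it called 18.6% lower at 6 h and 14.5% higher and 15.5% lower at 12 h. Between 12 h and 6 h these shares were 12.8% higher and 12.9% lower. Leaving out each library in turn gave 0 to 1 higher at 3 h, 0 to 1 higher and 0 to 7 lower at 6 h and 0 to 1 higher and 2 to 49 lower at 12 h against sham, 0 to 1 lower between 6 h and 3 h, and 0 higher and 1 to 8 lower between 12 h and 6 h.

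Deviations of same-numbered libraries correlated between -0.268 and 0.168, with 4 of 18 pairs over 0.1. With 3 libraries in each group and no comparison with differently numbered libraries, this cannot show whether the numbers pair the libraries. With the number as a replicate block, 9 members were lower at 12 h against sham and 4 between 12 h and 6 h. The shares of all genes lower were 13.7% and 11.0%. In the same fit 17 members were called among the 4 groups, and the share of all genes was not counted there.

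Depth was alike in all libraries. It limited Cox7a1, which had 0 to 19 counts in a library and was tested, and Cox6a2 and Cox8b, which were not.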
